A study of Mus musculus with 8 samples.

Results

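Phenylalanine and tyrosine breakdown in the liver was described from 7 of the 11784 genes in the deposited table, namely Qdpr, Pcbd1, Tat, Hpd, Hgd, Gstz1 and Fah. The genes were chosen by name, as the enzymes of the pathway and of its cofactor cycle, and all 7 were present once in the table. The livers came from 8 male C57BL/6J mice that were switched at 9 weeks of age from chow to an amino acid-defined diet, and were collected about 4 months later after an overnight fast of about 16 hours. The Control diet (TD.140711) was fed to 4 of the mice, and the Low AA diet (TD.140712), which takes a smaller share of its calories from amino acids and a larger share from carbohydrate, was fed to the other 4. The mice were housed in groups, and which mice shared a cage is not given. The p-values measure the spread between these animals and treat them as independent. If mice that shared a cage were alike, the p-values would be too small, which could not be tested.

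In the liver, phenylalanine is first hydroxylated to tyrosine with tetrahydrobiopterin as the cofactor, and tyrosine is then taken apart to fumarate, which enters the citric acid cycle, and acetoacetate, a ketone body. Phenylalanine and tyrosine are therefore both glucogenic and ketogenic, and the liver is the main site of their disposal. The pathway is best known for its inherited defects, which include a high blood phenylalanine when the cofactor is not recycled, alkaptonuria when HGD is lost, and hereditary tyrosinaemia when TAT, HPD or FAH is lost.

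The upstream sequences of 2 of the genes, chosen for their values, are shown. A link between these sequences and the values was not tested. Tat varied most between mice, and Tat and Hpd had the largest differences between the diets. Each is the RefSeq promoter window of GRCm38.p6, read 5′ to 3′ on the strand of the gene from 250 bases before to 50 bases after the annotated start. Capitals mark matches on either strand to the 8 motifs given here. The windows lie at chr8:109990186-109990485 (plus strand) for Tat and at chr5:123182674-123182973 (minus strand) for Hpd.
Tat: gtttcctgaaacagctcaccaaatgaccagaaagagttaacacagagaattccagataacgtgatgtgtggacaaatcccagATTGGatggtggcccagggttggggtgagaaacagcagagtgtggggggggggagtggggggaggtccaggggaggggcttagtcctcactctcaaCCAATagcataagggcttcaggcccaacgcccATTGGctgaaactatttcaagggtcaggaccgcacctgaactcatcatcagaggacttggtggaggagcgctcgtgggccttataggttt
Hpd: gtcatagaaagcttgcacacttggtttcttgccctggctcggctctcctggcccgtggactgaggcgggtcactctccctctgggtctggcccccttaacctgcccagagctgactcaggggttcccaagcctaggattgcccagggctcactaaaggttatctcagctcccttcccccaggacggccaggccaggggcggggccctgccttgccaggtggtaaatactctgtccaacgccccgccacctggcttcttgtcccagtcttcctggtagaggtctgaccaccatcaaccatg

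The motifs were AGAACA (glucocorticoid receptor), TGACGTCA (cAMP response), TGTTTAC (FOXO and FOXA), CAAAGTCCA (HNF4), TTGCGCAA (C/EBP), TGATGCAAT (amino acid response), the CCAAT box, searched as those 5 letters, and the TATA box, searched as TATAAA. The Tat window held the CCAAT box at 3 places, with the first bases 168, 72 and 40 bases before the start, and Qdpr, Hgd and Gstz1 also held that motif, as did 37.4% of the 32851 promoter windows of the table. The TATA box was found in the windows of Pcbd1 and Hgd, and in 13.6% of all windows. None of the 8 motifs was present in the Hpd window. Over the 8 windows of the 7 genes, the glucocorticoid receptor motif was found in Qdpr alone and the cAMP, FOXO, HNF4, C/EBP and amino acid response motifs in no gene, while those motifs were held by 19.0%, 1.79%, 3.65%, 0.475%, 0.183% and 0.192% of all windows, in that order. These are matches of letters only, and sequence outside the windows was not searched, so that sites further from a start would not be seen.

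The deposited values were read as counts of reads that had been scaled in each mouse and rounded, and they are called scaled read counts here. They summed to between 27876664 and 30799385 per mouse, with nearly equal medians over genes. Of the hepatocyte markers, 9 of 10 were in the table, and their summed scaled read counts were 2450480 to 2854553 on the Control diet and 2709873 to 2953748 on the Low AA diet. Markers of bile duct cells summed to 1124 to 2265 (Control) and 826 to 1316 (Low AA), and those of blood to 4952 to 16567 (Control) and 5476 to 7974 (Low AA). Of the markers of macrophages, stellate and endothelial cells, bile duct cells and blood, 0 passed the test between diets, which 0.399% of all genes passed. Bile duct markers were lower on the Low AA diet in 4 of 4 cases (median log2 difference -0.62) and blood markers in 4 of 5 (-0.49). Macrophage markers were higher in 6 of 6 (0.23), and stellate and endothelial markers were lower in 5 of 9 (-0.02). The part of these cells in the values of the 7 genes was not tested. Control mouse F2212 stood apart, with 36587 for the acinar enzyme gene Cela1, against 130 to 288 in the other 7 mice, and with a summed value of 521442 over 10 acute-phase genes, against 213598 to 280042 in the others. The differences of Tat and Hpd, the spread of Tat and the summed share of the 7 genes are also given without this mouse.

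None of the 7 genes passed the test between the diets. The largest differences in mean log2 value corresponded to a Low AA level 0.810 times that of Control for Hpd and 1.22 times for Tat. Every ratio of Low AA to Control given here comes from the difference of mean log2 values, and so is not the ratio of the printed means. In limma, on the scale of log2(value + 1) with Benjamini-Hochberg adjustment over all 11784 genes, 0 of the 7 passed an adjusted p under 0.05, and their adjusted p-values ran from 0.456 to 0.989. Of all genes, 0.399% passed that threshold. At an unadjusted p under 0.05 there were again 0 of 7, where 11.8% of all genes passed, and 0 of 7 had values that did not overlap between the diets, where 6.81% of all genes did not overlap. On the Low AA diet 2 of the genes were higher and 5 lower in mean, and the median log2 difference (Low AA minus Control) was -0.02, beside 0.00234 over all genes tested. In liver tissue taken whole, fewer cells of a type and less RNA per cell cannot be told apart, so that every value is a level per liver sample.

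**Figure D1:**
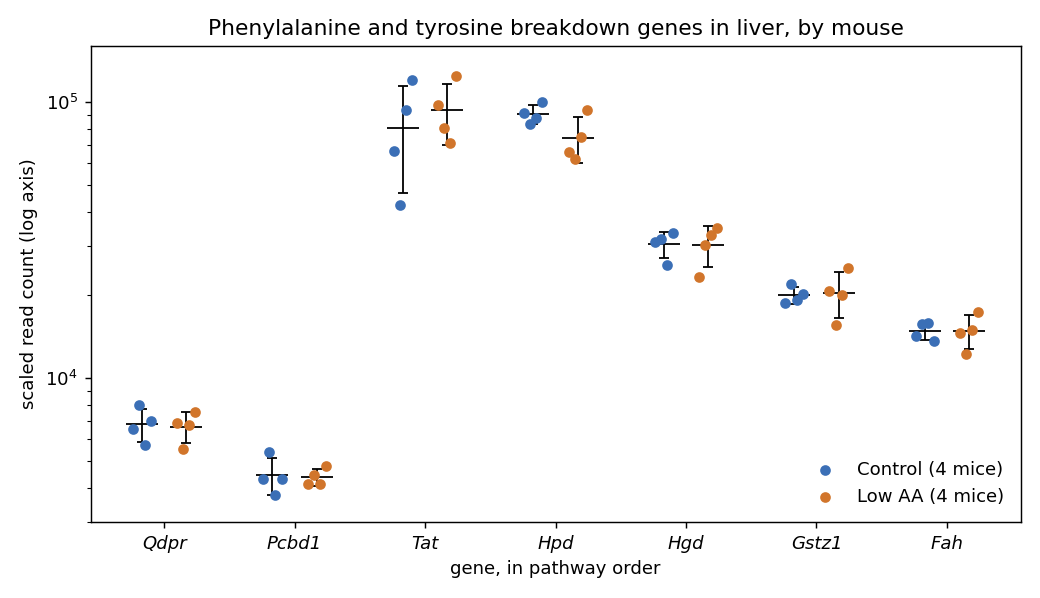
Scaled read count (log axis) of each of the 7 genes in each mouse, with Control mice in blue and Low AA mice in orange. Horizontal bars are the means and vertical bars the SD over 4 mice. The diets overlap for every gene, and the points of Tat spread most, from 42227 to 124510.

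Of the enzymes of the cofactor cycle, Qdpr encodes dihydropteridine reductase, which returns the spent biopterin to its active form. It lies on chromosome 5 from 45434021 to 45450236 (GRCm38, GENCODE). The Control mice F129, F2212, F7111 and F2110 had 6556, 7967, 5705 and 7004 scaled read counts of Qdpr, and the Low AA mice H1126, H828, H817 and H1315 had 6857, 5518, 6764 and 7532. The highest value was in a Control mouse and the lowest in a Low AA mouse, with the remaining mice interleaved. The means were 6808 ± 942 on the Control diet and 6668 ± 839 on the Low AA diet (SD, n = 4 each), a log2 difference of -0.03 (standard error 0.13, limma adjusted p = 0.959).

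Pcbd1 encodes pterin carbinolamine dehydratase, which acts one step before Qdpr in the recycling of the cofactor. It lies on chromosome 10 from 61089331 to 61094324. In the same order of mice, its values were 4316, 5402, 3766 and 4322 on the Control diet and 4118, 4436, 4136 and 4784 on the Low AA diet. The Low AA values all lay inside the range of the Control mice, which was set by F7111 at the bottom and F2212 at the top. The means were 4452 ± 685 and 4369 ± 313 (SD, n = 4 each), a log2 difference of -0.02 (standard error 0.12, limma adjusted p = 0.977).

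Tat encodes tyrosine aminotransferase, which removes the amino group of tyrosine and is classically induced in the liver by glucocorticoids, glucagon and fasting. It lies on chromosome 8 from 109990437 to 109999803. Its scaled read counts were 66345 in F129, 42227 in F2212, 93429 in F7111 and 120661 in F2110 on the Control diet, and 97483 in H1126, 80589 in H828, 71220 in H817 and 124510 in H1315 on the Low AA diet. Both of the lowest mice were Controls, but a Control mouse was also the second highest, and 3 of the 4 Low AA mice lay above the Control median. The means were 80666 ± 33888 and 93451 ± 23385 (SD, n = 4 each), a log2 difference of 0.29 (standard error 0.30, limma adjusted p = 0.781). The 95% interval of the ratio of Low AA to Control ran from 0.769 to 1.93. Control mouse F2212, the one with high acute-phase genes, had the lowest Tat of all 8, and without it the log2 difference was 0.00930 (limma adjusted p = 0.993). Whether the acute-phase state of this mouse bears on its Tat was not tested.

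Tat was also the gene with the widest spread. The highest mouse had 2.95 times the scaled read count of the lowest, and 2.86 times among the Control mice alone. Both ratios rested on F2212, and without it they were 1.88 and 1.82. Its SD on the log2 scale, pooled within the diets, was 0.526, above that of 94.4% of the 11784 genes, and without F2212 it was 0.386, above that of 88.6%. The other 6 genes had pooled SDs between the 30.7th and the 51.9th percentile of all genes, and their highest mouse was between 1.42 and 1.61 times their lowest.

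Hpd encodes hydroxyphenylpyruvate dioxygenase, the iron enzyme that forms homogentisate from the product of Tat. It lies on chromosome 5 from 123171807 to 123182727. Its scaled read counts were 91251, 83710, 87387 and 100023 in the Control mice, in the order F129, F2212, F7111 and F2110, and 65871, 62273, 74869 and 93728 in the Low AA mice, in the order H1126, H828, H817 and H1315. The lower 3 Low AA mice lay below every Control mouse, whereas H1315 lay above 3 of the 4 Controls. The means were 90593 ± 7000 and 74185 ± 14064 (SD, n = 4 each), a log2 difference of -0.30 (standard error 0.14). The ratio of Low AA to Control was 0.810, with a 95% interval from 0.649 to 1.01. With all mice this was the largest of the 7 differences in size, but Tat exceeded it in 5 of the 8 fits that left out a mouse. It did not pass the test (limma p = 0.0612, adjusted p = 0.456; exact permutation test over the 8 mice, two-sided, p = 0.114). Without H1315 the log2 difference was -0.42 (limma adjusted p = 0.213), and without F2212 it was -0.34 (limma adjusted p = 0.427). The smallest in size with a mouse left out was -0.225, without H828 (limma adjusted p = 0.701).

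The remaining steps showed differences close to 0. Hgd encodes homogentisate dioxygenase, which opens the aromatic ring, and lies on chromosome 16 from 37580153 to 37632020. It had 31090, 31890, 25750 and 33596 scaled read counts in Control mice F129, F2212, F7111 and F2110, and 23198, 30247, 33136 and 35078 in Low AA mice H1126, H828, H817 and H1315. The Low AA mice held both the lowest and the highest value. The log2 difference was -0.02 (standard error 0.15, limma adjusted p = 0.982).

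Gstz1 encodes maleylacetoacetate isomerase, a glutathione transferase of the zeta class that uses glutathione to turn maleylacetoacetate into fumarylacetoacetate. It lies on chromosome 12 from 87147165 to 87164723. It had 18648, 21914, 19206 and 20182 in the Control mice and 20683, 15593, 20034 and 25094 in the Low AA mice, in the same order. The 4 Control mice fell within 1.18-fold of each other, and the 4 Low AA mice within 1.61-fold, with H828 lowest and H1315 highest. The log2 difference was 0.00841 (standard error 0.14, limma adjusted p = 0.989).

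Fah encodes fumarylacetoacetate hydrolase, the last enzyme, which releases fumarate and acetoacetate. It lies on chromosome 7 from 84585159 to 84606722. It had 14155, 15740, 15833 and 13569 in the Control mice and 14593, 12268, 14964 and 17368 in the Low AA mice, again with H828 lowest and H1315 highest. The means were 14824 ± 1137 and 14798 ± 2088 (SD, n = 4 each), a log2 difference of -0.01 (standard error 0.12, limma adjusted p = 0.987).

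**Figure D2:**
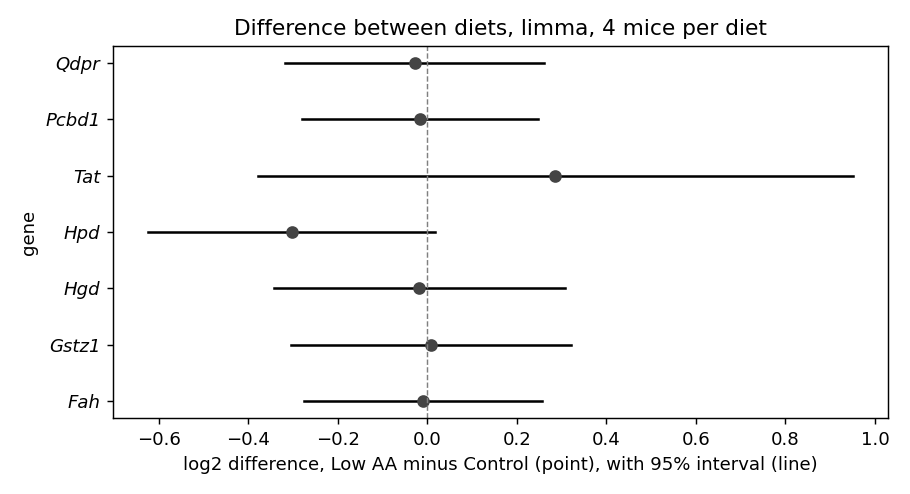
Log2 difference between diets, Low AA minus Control, for each gene in limma with 4 mice per diet (points), with its 95% interval (lines). All 7 intervals include 0, and the interval of Tat, from -0.38 to 0.95, is the widest.

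The intervals show how far these mice limited a change. For Qdpr, Pcbd1, Hgd, Gstz1 and Fah the 95% intervals of the ratio of Low AA to Control lay between 0.788 and 1.25, the bounds being those of Hgd at the low end and Gstz1 at the high end. The interval of Hpd reached further down, to 0.649, and that of Tat further up, to 1.93. Together the 7 genes took up 0.854% ± 0.145 of all scaled read counts on the Control diet and 0.838% ± 0.111 on the Low AA diet (SD, n = 4 each). The lowest share, 0.719%, was in F2212 and the highest, 1.06%, in F2110, both of them Control mice. Without F2212 the Control share was 0.899% ± 0.139 (SD, n = 3), and the lowest share was 0.757%, in Low AA mouse H828.

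To compare the genes with each other, scaled read counts were divided by the length of the principal GENCODE transcript. Hpd was the most abundant per kilobase, with 64525 ± 4986 on the Control diet and 52838 ± 10017 on the Low AA diet (SD, n = 4 each). Tat followed with 33964 ± 14269 and 39348 ± 9846, and Hgd with 17968 ± 1990 and 17870 ± 3058. Next came Gstz1 with 12070 ± 865 and 12289 ± 2348, and Fah with 9353 ± 717 and 9336 ± 1317. The cofactor enzymes were lowest, with 5642 ± 868 and 5537 ± 397 for Pcbd1 and 4933 ± 683 and 4832 ± 608 for Qdpr. The order of the means was the same on both diets. It held between neighbours within every mouse, except that Tat was above Hgd in 7 of the 8 mice. The ranges over mice of neighbours nevertheless overlapped along the whole order, other than between Fah, whose lowest value was 7740, and Pcbd1, whose highest was 6847. All 7 genes were among the more abundant of the table, from the 92.7th percentile of mean scaled read count for Pcbd1 to the 99.6th for Tat.

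**Figure D3:**
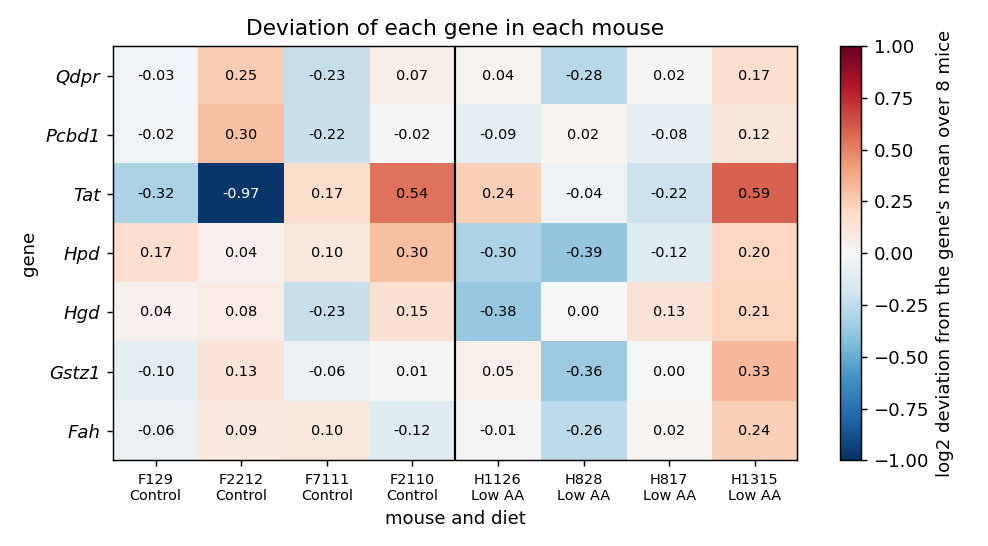
Deviation of each gene in each mouse from its mean over the 8 mice, on the log2 scale, with Control mice left of the line and Low AA mice right of it. Low AA mouse H1315 is above the mean for all 7 genes, and F2212 has the single largest deviation, -0.97 for Tat.

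Much of the variation lay between mice of the same diet. Low AA mouse H1315 was above the mean of the 8 mice for every gene, by 0.267 on average on the log2 scale, and Low AA mouse H828 had a mean deviation of -0.187. These 2 mice also had the highest and the lowest column total of the 8, 30799385 and 27876664, and their part in the deviations was not tested. In F2212 Qdpr and Pcbd1 were the highest of all mice while Tat was the lowest. Over the 8 mice, the 21 pairs of genes had positive Pearson correlations in 18 cases. The strongest were Gstz1 with Fah (r = 0.869, exact permutation p = 0.00997, adjusted over 21 pairs 0.105; rho = 0.619, exact permutation p = 0.115, adjusted 0.598) and Qdpr with Gstz1 (r = 0.836, exact permutation p = 0.00885, adjusted 0.105; rho = 0.929, exact permutation p = 0.00223, adjusted 0.0469). Without the 2 mice farthest from the median of the first gene, r was 0.281 for Gstz1 with Fah, so that this relation rested on H828 and H1315, and 0.758 for Qdpr with Gstz1. The highest r of Tat was 0.200, with Hpd (exact permutation p = 0.642, adjusted 0.857; rho = 0.381), and over deviations from the diet means it was 0.552. The lowest r of Tat was -0.473, with Pcbd1 (exact permutation p = 0.232, adjusted 0.559; rho = -0.119), which became 0.50 without F2212 and F7111. All values of a mouse come from 1 library and share its scaling.

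Ratios of 2 genes within a mouse do not depend on that scaling. Of the 21 ratios, compared after the values had been seen, 0 differed between the diets after adjustment (lowest adjusted p = 0.5, exact permutation tests, two-sided). The smallest unadjusted p, 0.0571, was reached by Hpd over Gstz1, which was 3.82 to 4.96 on the Control diet and 3.18 to 3.99 on the Low AA diet, and by Hpd over Fah, which ran from 5.32 to 7.37 and from 4.51 to 5.40. Tat over Hpd was 0.504 to 1.21 on the Control diet and 0.951 to 1.48 on the Low AA diet (exact permutation test, two-sided, p = 0.143, adjusted p = 0.5).

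The genes whose values followed each member most closely over the 8 mice were Vps28, Ifitm2 and Iscu for Qdpr, Dolk, C630004H02Rik and Cuta for Pcbd1, and Rtel1, Blzf1 and Rccd1 for Tat. For Hpd they were Fbxl4, Atpaf1 and Aqp11, for Hgd Skap2, Polr3c and Tmem5, for Gstz1 Cyb5, Pxmp2 and Gm3435, and for Fah Serpina1a, Rbms2 and Rhbg. Their Pearson correlations, picked as the highest of the table, ran from 0.912 (Tmem5 with Hgd) to 0.985 (Vps28 with Qdpr). No member was among the 3 closest genes of another.

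Around the pathway, 13 lists of related genes held 109 genes in the table, of which 0 were called higher and 2 lower, Bdh2 and Dct. Among all genes, 0.102% were called higher and 0.297% lower. The median log2 difference of the 109 genes was -0.05. Of the 109 genes, 6 had values that did not overlap between the diets, where 6.81% of all genes did not overlap. An unadjusted limma p under 0.05 was reached by 13 of the 109, and by 11.8% of all genes.

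Dct encodes dopachrome tautomerase, which acts in the melanin branch of tyrosine use and is a pigment-cell gene. It had 31, 61, 39 and 34 scaled read counts in Control mice F129, F2212, F7111 and F2110, and 3, 2, 2 and 7 in Low AA mice H1126, H828, H817 and H1315. The diets did not overlap, and all the values are low next to those of the breakdown enzymes. The log2 difference was -3.31 (standard error 0.40, limma adjusted p = 0.00648), which was called lower in each of the 8 fits that left out a mouse. The other 6 genes of that list in the table did not pass, among them Ddc, which makes dopamine, and Maoa, which breaks down monoamines.

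Bdh2 encodes a cytosolic hydroxybutyrate dehydrogenase. Acetoacetate, the ketone body that Fah releases, is interconverted with hydroxybutyrate mainly by the mitochondrial enzyme encoded by Bdh1. Bdh2 had 85, 88, 80 and 79 in the Control mice and 41, 36, 34 and 22 in the Low AA mice, in the order used above. The diets did not overlap, with a log2 difference of -1.33 (standard error 0.21, limma adjusted p = 0.0308). The call was lost without Low AA mouse H828 or H817, or without Control mouse F129, F7111 or F2110, with adjusted p-values from 0.0666 to 0.0880. Bdh1, with a far higher mean of 11149 on the Control diet and 9992 on the Low AA diet, did not pass (log2 difference -0.15, limma adjusted p = 0.735). Acat1, a mitochondrial thiolase for acetoacetyl-CoA, did not overlap between diets, with 20190 to 22898 on the Control diet and 23257 to 26583 on the Low AA diet, but did not pass either (log2 difference 0.19, limma adjusted p = 0.483).

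None of the 6 genes that make or recycle tetrahydrobiopterin passed, and their median log2 difference was -0.09. Gch1, the first enzyme of its synthesis, had 3892 ± 183 on the Control diet and 3418 ± 523 on the Low AA diet (SD, n = 4 each; limma adjusted p = 0.565). Of the other aminotransferases that can act on tyrosine and enzymes related to the later steps, 6 of 8 were in the table and 0 passed. Got1, the cytosolic aspartate aminotransferase, had 18606 ± 6795 and 24328 ± 8274 (SD, n = 4 each; log2 difference 0.39, limma adjusted p = 0.653). Fahd2a, whose product shares a domain with FAH, had the largest difference of this list, -0.56 (limma adjusted p = 0.284).

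Of 7 genes of ascorbate synthesis and uptake, ascorbate being the reductant that keeps HPD and HGD active, 0 passed, with a median of -0.23. Ugdh, which makes UDP-glucuronate, did not overlap between diets, with 2573 to 3586 on the Control diet and 1073 to 1882 on the Low AA diet (log2 difference -0.91, limma adjusted p = 0.0712). Gulo, the last enzyme of ascorbate synthesis, had a log2 difference of -0.03 (limma adjusted p = 0.964). Of 4 genes of glutathione synthesis and reduction, 0 passed, with a median of -0.09, and Gclm had the largest difference at -0.31 (limma adjusted p = 0.366). Of the 5 tRNA ligases for tyrosine and phenylalanine and the 6 transporters of aromatic amino acids, 0 passed. The largest differences were 0.13 for Farsa and -0.42 for Slc43a1 (limma adjusted p = 0.715 and 0.742).

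**Figure D4:**
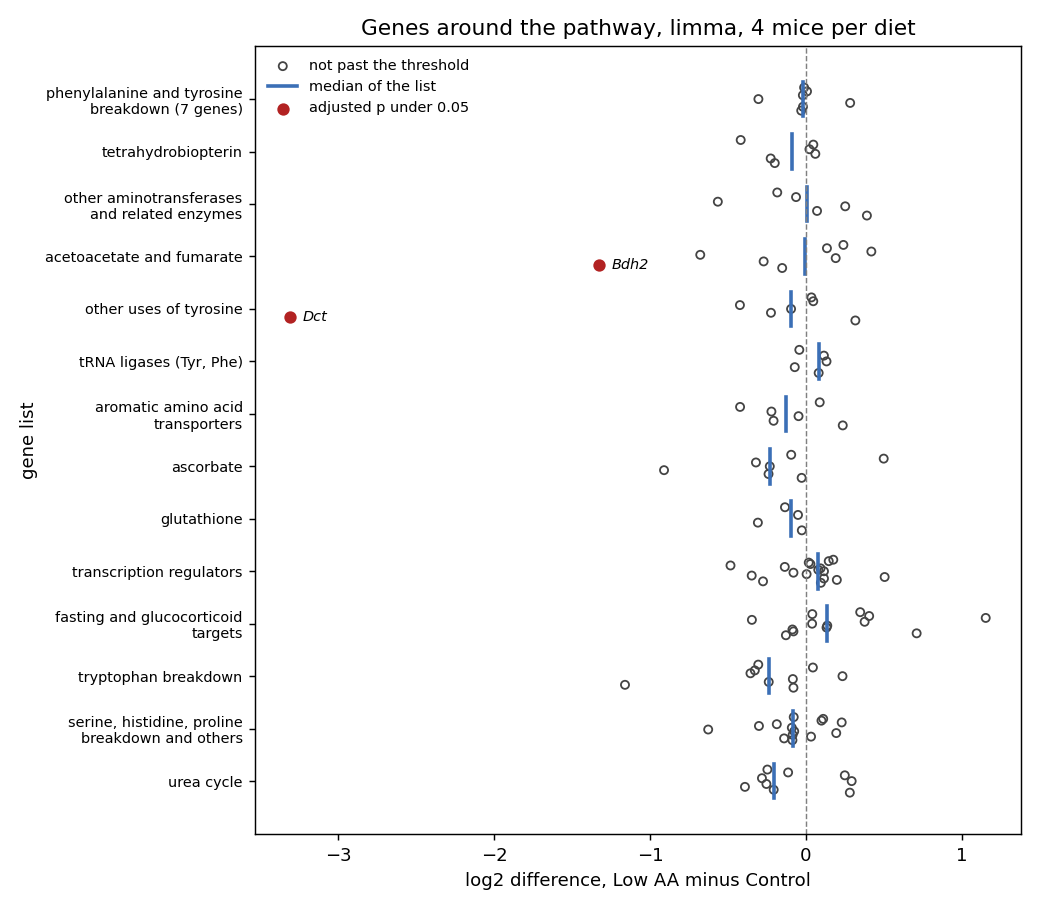
Log2 difference between diets, Low AA minus Control, for each gene of the 7 breakdown enzymes and of the 13 related lists (limma, 4 mice per diet). Red points passed an adjusted p under 0.05, open points did not, and blue bars are list medians, with Dct at -3.31 and Bdh2 at -1.33 the genes called.

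Factors known to act on Tat and the other genes were likewise not called. Of 17 transcription regulators 0 passed, with a median log2 difference of 0.08. Nr3c1, the glucocorticoid receptor, had a log2 difference of 0.10 (limma adjusted p = 0.824). Ppargc1a, a coactivator of the fasting response, had the largest difference at 0.51, with values of 465 to 1828 on the Control diet and 794 to 1831 on the Low AA diet (limma adjusted p = 0.751). Of 13 fasting and glucocorticoid target genes 0 passed, with a median of 0.13, and 9 were higher and 4 lower in mean log2 value. Sgk1, a kinase gene induced by corticosteroids, did not overlap between the diets, with 720 to 1330 on the Control diet and 1564 to 2557 on the Low AA diet (log2 difference 1.16, standard error 0.22, limma adjusted p = 0.0611). With Control mouse F2110 left out, Sgk1 was called higher (log2 difference 1.36, limma adjusted p = 0.0168). That mouse had the highest Control value, and Sgk1 was called in no other fit. G6pc, the glucose phosphatase of gluconeogenesis, was the other gene of this list with an unadjusted p under 0.05 (log2 difference 0.71, standard error 0.25, limma adjusted p = 0.282).

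Other routes of amino acid breakdown are given for comparison, without a test of the difference from the tyrosine route. Of 9 genes of tryptophan breakdown, of 14 genes for serine, histidine, proline and others, and of 9 genes of the urea cycle, 0 were called in each list. Their median log2 differences were -0.24, -0.08 and -0.21, beside -0.02 for the 7 genes of phenylalanine and tyrosine breakdown. The largest differences were those of Ido2 (-1.16, limma adjusted p = 0.0511), Prodh (-0.63, limma adjusted p = 0.475) and Ass1 (-0.39, limma adjusted p = 0.569). The values of Ido2, an indoleamine dioxygenase gene, did not overlap between diets, with 775 to 1239 on the Control diet and 280 to 518 on the Low AA diet. Without Control mouse F2212 it was called lower (log2 difference -1.26, limma adjusted p = 0.0383). That mouse had the lowest Control value of Ido2, and the gene was called in no other fit.

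Of the markers of liver zones, 0 were called. Of 8 periportal markers 6 were lower in mean, with a median log2 difference of -0.15, and of 8 pericentral markers 6 were lower in mean, with a median of -0.21. Periportal Cyp2f2 and Pigr did not overlap between diets, with log2 differences of -0.77 and -0.73 (limma adjusted p = 0.131 and 0.0793). Others with an unadjusted p under 0.05 were periportal Aldh1b1 and pericentral Cyp1a2 and Slc1a2, with log2 differences of -0.62, -0.59 and -0.47 (limma adjusted p = 0.323, 0.245 and 0.289). The part of liver zones in the values of the 7 genes was not tested.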

How the data were processed

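Poly(A) RNA of 8 livers was sequenced from stranded libraries. The submitters' processing notes name bcl2fastq 1.8.2, STAR 2.5.0a, RSEM 1.2.6, edgeR 3.10.5, R 3.2.1 and mm10, without roles. The deposited values are a signal per gene: whole numbers with nearly equal medians in all mice, read here as read counts that were scaled per mouse and rounded, by a method not given in the sources used here. No count model was therefore used, and the depth is known only roughly. The deposited fold change and FDR were not used.

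The test was limma 3.58.1 (R 4.3.3) on log2(value + 1), with a mean-variance trend but no covariate, and Benjamini-Hochberg adjustment at 0.05. This scale understates changes of low values. No filter was added to the authors' own. Single values were compared by exact permutation (two-sided; the smallest p for 4 against 4 mice is 0.0286). The fit was tested on simulated data, with 200 changed genes in each of 3 runs. It recovered 23.3% of the genes changed by a log2 size of 0.5 and 78% of those changed by 1. Sizes below 0.5, such as the differences of Hpd and Tat, were not simulated.

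The members and lists were chosen with earlier results of these data known. Genes named were the members, listed genes that passed or that had an unadjusted p under 0.05 without overlap, the largest difference of each list, and the 3 closest genes of each member; some results that this rule names are not reported here. Others (Acat1, Bdh1, Gch1, Got1, Gulo, Nr3c1, G6pc, Aldh1b1, Cyp1a2, Slc1a2, Ddc and Maoa) were named after their values were seen. Other listed markers without overlap were Col1a1 and Alas2 (log2 differences -1.07 and -0.49) and the acute-phase genes Saa1 and Orm1 (-3.49 and -2.06), with limma adjusted p-values of 0.148, 0.266, 0.261 and 0.0908. Alternatives were pseudocounts of 0.1 and 5, the 8000 genes of highest mean, other scalings, weights and moderation, and each mouse left out; the ratios of gene pairs and the spread without F2212 were added after the values were seen. Positions are from GENCODE (GRCm38), and promoters from RefSeq (GRCm38.p6), which held all 7 genes. Figures were drawn with matplotlib 3.10.9.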

Additional observations from a re-analysis of the deposited data

Results flagged for a closer look

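None of the 7 breakdown genes, nor their sum, had 1 mouse far from the other 3 of its diet. Of 68 groups of 4 mice examined over these genes and the related lists, 5 had such a mouse, and chance gives about 1 in 20. In Low AA mouse H1315 the mean log2 value of the tetrahydrobiopterin genes was 10.23, against 9.91 to 9.96 in the other Low AA mice (gap over range 0.850). In Low AA mouse H1126 the mean of the transcription regulators was 9.64, against 9.73 to 9.74 (0.876), and that of the blood markers 10.30, against 9.83 to 9.90 (0.868). In Control mouse F2212 the 1 pancreas marker in the table, Cela1, was at 15.16, where its diet mates had 7.03 to 7.48 (0.945), and the mean of the acute-phase genes at 13.57, against 11.20 to 11.50 (0.877).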

How the results depend on the processing

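The comparison was unpaired, because each mouse was fed either the Control or the Low AA diet and no pairing of mice between the diets is given. In every alternative run, with another pseudocount, the 8000 genes of highest mean, other column scalings, other weights or moderation, a threshold of 0.1, or any 1 mouse left out, 0 of the 7 genes were called. Their median log2 difference ran from -0.09 to 0.06 with a mouse left out. Hpd stayed lower on the Low AA diet (-0.422 to -0.225 with a mouse left out). Tat kept its sign but ran from 0.514 down to 0.00930, a value near 0 that was reached without Control mouse F2212 (limma adjusted p = 0.993). The sign of the other 5 genes turned when single mice were left out, with ranges of -0.110 to 0.0593 for Qdpr, -0.0939 to 0.0796 for Pcbd1, -0.0985 to 0.106 for Hgd, -0.0991 to 0.130 for Gstz1 and -0.0909 to 0.0763 for Fah. These ranges lie within the 95% intervals, which come from the same mice, so that this is no separate check. Of the 109 related genes, 2 were called, with 1 to 3 called when a mouse was left out: 1 without Low AA mouse H828 or H817 or Control mouse F129 or F7111, and 3 (Dct, Bdh2 and Ido2) without Control mouse F2212. Without Control mouse F2110, Sgk1 was called and Bdh2 was not. Among the 8000 genes of highest mean 0 of the 99 related genes left were called, since neither Dct nor Bdh2 is among them. The unadjusted p of Hpd was 0.0412 with columns scaled to equal totals and 0.00798 without Low AA mouse H1315.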
